A study of Mus musculus with 15 samples.

Results

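The semaphorins, plexins, ephrins and Eph receptors were followed in sorted lymphatic endothelial cells, the cells that line lymph sinuses and lymphatic vessels. The members are all protein-coding genes whose symbols carry the family names: 20 semaphorins of vertebrate classes 3 to 7, 9 plexins, 8 ephrins and 14 Eph receptors. They make 51 genes of the 21839 in the count table, taken by name with no cut on a measured value. Earlier results of these data were known when they were chosen. Bulk mRNA was sequenced from 15 libraries in 3 groups of 5. NdLN cells came from non-draining lymph nodes, TdLN cells from the nodes that drain the tumour, and Tumor cells are lymphatic endothelial cells sorted from the tumours themselves. The mice were C57bl/6 animals aged 10 weeks that had been transplanted with a lymphangiogenic mouse melanoma line, so the NdLN libraries also come from tumour-bearing mice, and a node without any tumour in the animal is not among these groups. The cells were gated as CD45 negative, CD31 positive and gp38 positive. The labels give no other treatment or genotype and do not say whether a library is 1 animal or a pool, so the spread that the p-values rest on may be technical.

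Semaphorins are secreted or membrane-bound guidance proteins. Plexins are their receptors, and the secreted class 3 semaphorins mostly need a neuropilin beside the plexin. Ephrins are membrane-bound ligands, linked to the membrane by a lipid anchor (A) or spanning it (B). The Eph receptor tyrosine kinases bind them on neighbouring cells, and signals pass into both cells. In lymphatic vessels, Sema3a with neuropilin-1 and plexin-A1, and ephrin-B2 with EphB4, are known for their parts in forming valves.

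The stretch of 250 bases before the RefSeq gene start (GRCm38.p6) is shown for 6 members on which the results turn. Sema3d and Ephb4 have the highest levels in node cells, Sema3a and Efnb2 are the ligands of the valve pairs, and Plxnc1 and Sema4f had almost no reads in node cells. Capitals mark matches to any of 8 short motifs searched on both strands. Each run reads 5′ to 3′ on the gene's strand.
Sema3d: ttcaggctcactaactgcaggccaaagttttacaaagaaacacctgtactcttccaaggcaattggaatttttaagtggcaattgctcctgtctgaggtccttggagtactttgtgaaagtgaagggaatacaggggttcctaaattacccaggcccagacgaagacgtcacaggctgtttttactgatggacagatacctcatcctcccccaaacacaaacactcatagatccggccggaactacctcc
Sema3a: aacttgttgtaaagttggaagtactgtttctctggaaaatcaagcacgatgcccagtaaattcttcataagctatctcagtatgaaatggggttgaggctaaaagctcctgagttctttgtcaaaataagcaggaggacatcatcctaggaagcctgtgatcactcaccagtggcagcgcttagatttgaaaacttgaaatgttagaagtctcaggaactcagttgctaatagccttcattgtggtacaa
Efnb2: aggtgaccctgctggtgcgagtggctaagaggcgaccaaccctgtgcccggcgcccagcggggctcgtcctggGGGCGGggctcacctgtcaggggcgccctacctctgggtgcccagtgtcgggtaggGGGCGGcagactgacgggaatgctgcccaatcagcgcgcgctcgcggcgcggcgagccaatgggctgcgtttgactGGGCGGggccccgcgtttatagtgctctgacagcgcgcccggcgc
Ephb4: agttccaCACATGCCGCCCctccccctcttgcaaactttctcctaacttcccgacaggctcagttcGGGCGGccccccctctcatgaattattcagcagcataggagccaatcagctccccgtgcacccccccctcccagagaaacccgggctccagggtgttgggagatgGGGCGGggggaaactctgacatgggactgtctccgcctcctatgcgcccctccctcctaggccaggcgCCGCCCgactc
Plxnc1: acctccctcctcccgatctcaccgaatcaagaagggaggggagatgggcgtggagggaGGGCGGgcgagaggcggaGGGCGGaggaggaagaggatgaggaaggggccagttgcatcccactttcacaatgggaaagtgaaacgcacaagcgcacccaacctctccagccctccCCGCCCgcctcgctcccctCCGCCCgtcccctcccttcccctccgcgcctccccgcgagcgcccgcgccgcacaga
Sema4f: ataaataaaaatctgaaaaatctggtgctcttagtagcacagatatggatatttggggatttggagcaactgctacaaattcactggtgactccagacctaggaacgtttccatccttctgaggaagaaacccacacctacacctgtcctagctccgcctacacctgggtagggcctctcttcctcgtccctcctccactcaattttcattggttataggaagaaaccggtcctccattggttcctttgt
These stretches lie at chr5:12382916-12383165 (plus strand), chr5:13396534-13396783 (plus), chr8:8661243-8661492 (minus), chr5:137349859-137350108 (plus), chr10:94944846-94945095 (minus) and chr6:82939770-82940019 (minus). The RefSeq start used for Sema3a lies inside the longer GENCODE gene, which spans chr5:13125414-13602565. All capitals are the GC box GGGCGG or its complement CCGCCC, except the first 6 capitals of Ephb4, CACATG, an E-box (CATGTG on the other strand) that directly precedes a GC box. Efnb2 holds 3 GC boxes, Ephb4 and Plxnc1 hold 4 each, and the windows of Sema3d, Sema3a and Sema4f hold none of the 8 motifs. GC boxes stood in 44 of the 59 windows of the 45 members with a RefSeq promoter (74.6%) and in 32.7% of all 32851 windows. The median GC content was 64.0% in the member windows and 52.4% in all. The other motifs were TGACTCA for AP-1, the symmetric E-box CACGTG and the E-box with the letters CATGTG. For ETS factors the letters were CCGGAAG, for GATA factors they were GATAAG, for RBPJ they were GTGGGAA and for forkhead factors they were GTAAACA. Each of these 7 matched 0 to 3 of the 59 windows, against 3.17% to 12.3% of all windows. Genes of these families that fell and genes that rose in the tumour both carry GC boxes, Efnb2 and Plxnc1 among them.

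Levels are given as CPM, the counts scaled to the library total after TMM adjustment. Genes were compared with each other as RPKM, which is CPM divided by the length of the gene's merged exons in kilobases. In node cells 3 members had means far above the rest. Ephb4, the receptor of ephrin-B2, was at 143 ± 38.3 RPKM in NdLN and 115 ± 39.5 in TdLN (mean ± SD, n = 5). Sema3d, a secreted class 3 semaphorin, was at 126 ± 10.7 and 103 ± 15.4. Efna1, the lipid-anchored ephrin-A1, was at 106 ± 11.4 and 99.7 ± 5.29. The libraries of these 3 genes overlapped within each node group, with Ephb4 ranging over 87.4 to 188 in NdLN, Sema3d over 115 to 139 and Efna1 over 98.3 to 125, so their order is not fixed by these data. The member next in order was Plxnb2 in NdLN at 32.9 ± 2.86 and Sema3f in TdLN at 32.3 ± 18.1. In the Tumor libraries the order was Efna1 at 80.4 ± 13.4, Ephb4 at 37.5 ± 13.2, Plxnd1 at 27.96 ± 15.3, Sema3f at 22.1 ± 16.4 and Plxna1 at 16.2 ± 7.31. Efna1 stood clear of the other members there, from 62.5 to 98.3, while Ephb4 (17.8 to 50.1) and Plxnd1 (12.6 to 46.4) overlapped. Sema3d was at 10.4 ± 2.01 RPKM in the tumour. The order below the leading members depends on the length used. Per length of the longest transcript Sema3d led both node groups, and Sema3a stood next after the leading 3 genes, at 41.0 RPKM in NdLN and 61.4 in TdLN, against 17.5 ± 3.52 and 26.3 ± 3.79 by merged exons. In Tumor that length put Plxna1 after Sema4c and Plxnb2, and Sema3f before Plxnd1. At the low end, 27 members in NdLN, 27 in TdLN and 22 in Tumor had a mean under 1 RPKM.

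**Figure D1:**
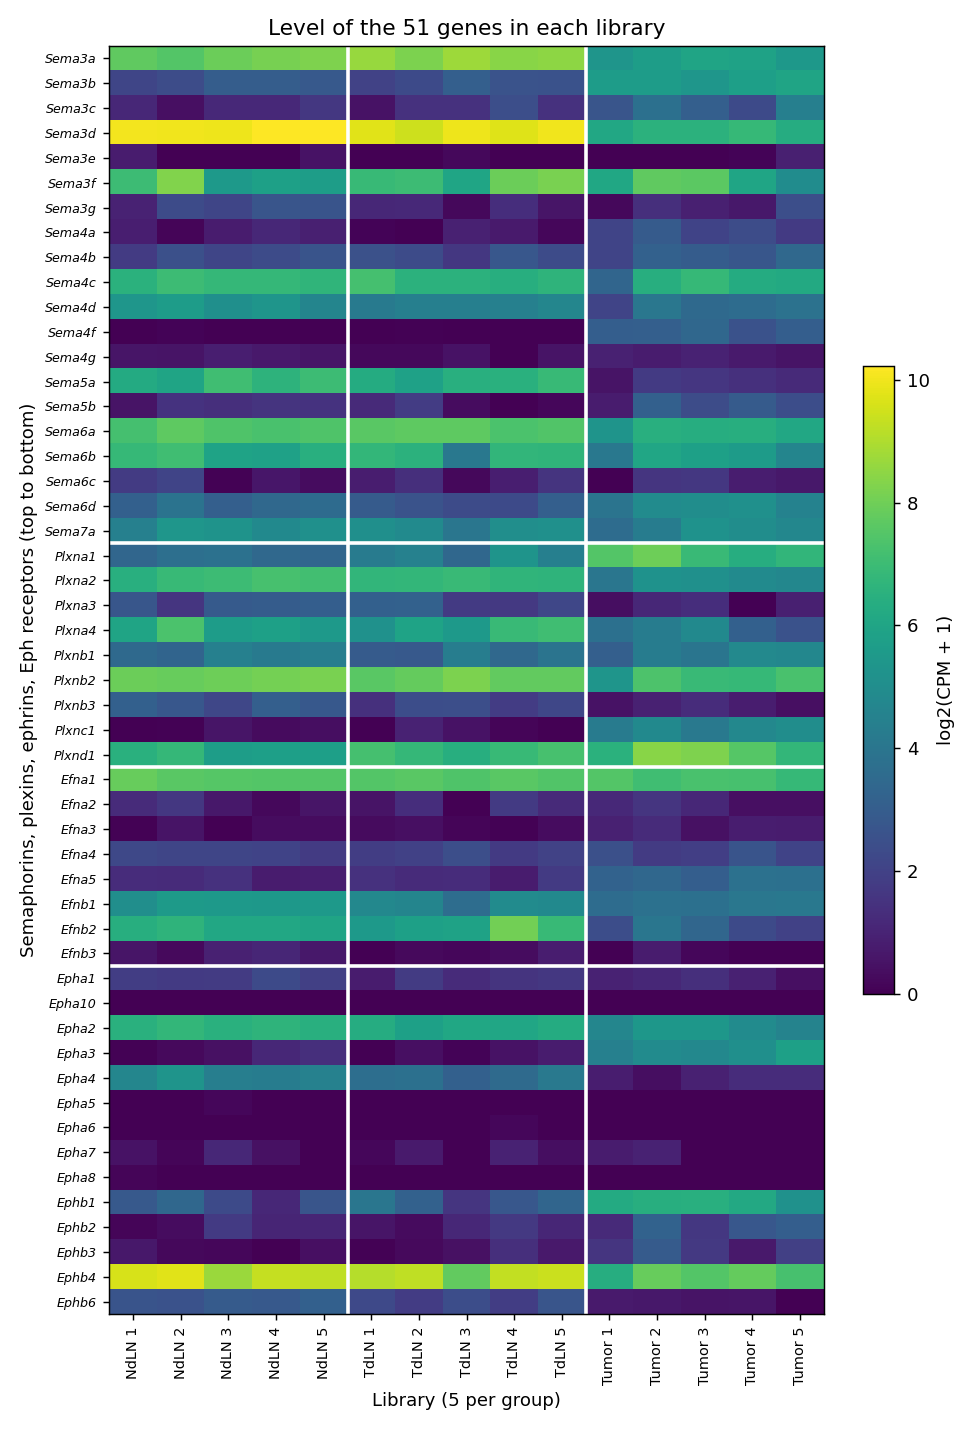
Level of the 51 genes (rows, by family) in each of the 15 libraries (columns, 5 per group), coloured by log2(CPM + 1), a scale not corrected for gene length. Sema3d is brightest in all 10 node libraries and dimmer in the 5 Tumor libraries, where Plxna1, Plxnc1, Epha3, Ephb1 and Sema4f brighten.

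Each library held 23830337 to 37437282 reads assigned to genes. The lymphatic markers Prox1, Lyve1, Flt4, Pdpn, Mmrn1, Ccl21a, Reln and Stab2 were all read in every library. Their sum was 7204 to 9465 CPM in NdLN, 6138 to 7947 in TdLN and 3271 to 4461 in Tumor. Of these 8 markers 2 were higher (Ccl21a and Reln) and 4 lower in Tumor than in TdLN, and 2 higher and 3 lower than in NdLN. Stab2, a scavenger receptor of sinus endothelium, was at 0.898 to 3.73 CPM in Tumor and 851 to 1193 in TdLN. Transcripts listed as markers of other cells also differed in the Tumor libraries. All 8 pigment cell genes tested were higher in Tumor than in TdLN, with sums of 24129 to 39608 CPM against 11.97 to 33.03. Of 10 fibroblast genes 8 were higher and 1 lower, and the sums were 1401 to 10311 against 156 to 391. Of 9 macrophage genes 8 were higher, with sums of 168 to 311 against 73.02 to 161. Of 5 Schwann cell and neuron genes tested 4 were higher and 1 lower, with sums over all 8 genes of 368 to 632 against 7.77 to 24.7. Of 8 pericyte and smooth muscle genes 4 were higher and 2 lower, with sums of 124 to 286 against 198 to 255. The blood endothelium list went down in sum, to 499 to 1152 CPM in Tumor from 3087 to 7473 in TdLN and 3147 to 6272 in NdLN. Of the 10 genes 3 were higher and 5 lower than in TdLN, and 2 higher and 7 lower than in NdLN. No gene of these lists was at 0 counts in all Tumor libraries. Leukocyte genes summed to 6.66 to 11.7 CPM in Tumor, 2.60 to 9.21 in TdLN and 2.84 to 34.6 in NdLN. Of these 10 genes 1 was higher and 1 lower in Tumor than in TdLN, and 0 higher and 5 lower than in NdLN. Epithelial genes summed to 1.01 to 4.14 CPM in Tumor, 0 to 0.506 in TdLN and 0.0869 to 0.446 in NdLN, and all 6 were too low to test. The part of these transcripts in the changes given below was not tested. In bulk RNA, fewer cells of a type and less RNA per cell cannot be told apart.

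The first comparison set draining against non-draining nodes. A single member of the 46 tested changed, Efnb1, which fell 1.77-fold in TdLN. Ephrin-B1 is a membrane-spanning ligand of EphB receptors. No member rose. This is 2.17% of the members, while 3.49% of all 13887 genes tested were called (484 genes), 1.84% higher and 1.64% lower. At an unadjusted p under 0.05 edgeR gave 11 of the 46 members and 17.6% of all genes. Calls are those of edgeR's quasi-likelihood test with a Benjamini-Hochberg adjusted p under 0.05 over all genes tested. A fold change is given as log2 ± a standard error (SE). That error was worked back from the test, as the size of the log2 change over the square root of the F statistic.

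Efnb1 (chrX:99136130-99148991, plus strand, GRCm38) stood at 32.1, 47.2, 43.6, 43.1 and 45.2 CPM in NdLN libraries 1 to 5, at 26.2, 24.2, 11.7, 29.2 and 28.0 in TdLN and at 11.3, 12.9, 12.8, 15.5 and 15.97 in Tumor. Every TdLN library lay below every NdLN library, NdLN 1 and TdLN 3 being the lowest of their groups. The log2 change from NdLN to TdLN was -0.82 ± 0.21 (adjusted p = 0.0393). It missed the threshold in 6 of 10 fits that left out 1 library (without NdLN 2, 3, 4 or 5, or TdLN 1 or 2), with adjusted p from 0.0798 to 0.0988, and at 0.0536 when only node libraries were fitted. Efnb1 was lower again in Tumor than in TdLN, -0.80 ± 0.21 (adjusted p = 0.00348), although TdLN 3 fell among the Tumor libraries.

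Sema3a, the secreted ligand of the neuropilin-1 and plexin-A1 complex, came near the threshold between the nodes. It stood at 213, 180.4, 242, 276 and 303 CPM in NdLN, 403, 294, 426, 337 and 361 in TdLN and 38.8, 50.5, 61.02, 58.8 and 42.9 in Tumor. The 4 lowest NdLN libraries lay below all TdLN libraries and NdLN 5 lay among them. The change was 0.58 ± 0.16 (adjusted p = 0.0592), and without NdLN 5 it passed at 0.0467. DESeq2 called 5 members between the nodes, 2 higher (Sema3a and Plxna1) and 3 lower (Efnb1, Epha4 and Sema6d). limma voom with quality weights called 4, Sema3a higher and Efnb1, Epha4 and Epha2 lower. Both methods also called more of all 13887 genes than edgeR, which called 256 higher and 228 lower. DESeq2 called 466 higher and 512 lower over all genes, and voom 328 and 490.

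**Figure D2:**
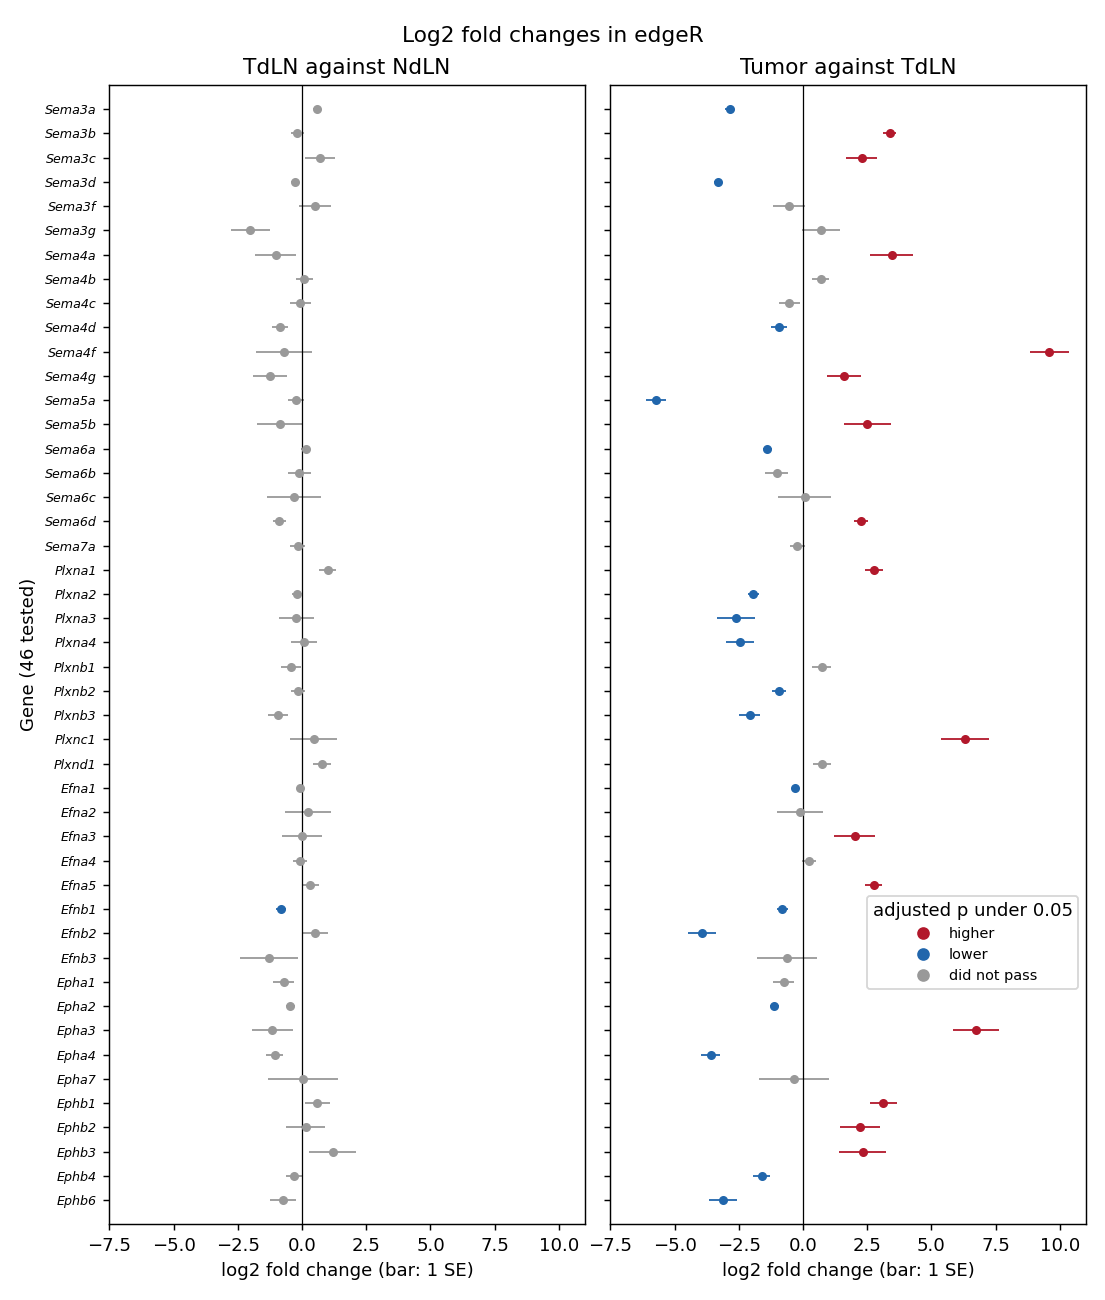
Log2 fold change of each of the 46 tested members with 1 SE, TdLN against NdLN on the left and Tumor against TdLN on the right, coloured by the call at an adjusted p under 0.05. Efnb1 alone is coloured on the left, and on the right 15 members are higher and 17 lower.

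Lymphatic endothelial cells of the tumour were then compared with those of the draining node. Of the 46 tested members, 15 were higher in Tumor and 17 lower, 69.6% in all. Among all genes tested 62.0% were called (8614), 31.9% higher and 30.1% lower, so the share of members called was near that of all genes. The median log2 change over the members was -0.27, and over all genes 0.04. Semaphorins gave 7 higher and 5 lower of 19 tested, plexins 2 and 5 of 9, ephrins 2 and 3 of 8, and Eph receptors 4 and 4 of 10. Against NdLN, with the same Tumor libraries, 15 members were higher and 19 lower, 73.9%, where 66.5% of all genes were called, 34.0% higher and 32.5% lower. Leaving out 1 library at a time, 26 of the 32 calls against TdLN and 31 of the 34 against NdLN were made in every fit. Against TdLN the call of Efna1 was lost without Tumor 5 (adjusted p = 0.0642) and that of Ephb2 without Tumor 2 (0.0545). Those of Sema4g, Sema5b, Efna3 and Ephb3 were lost in 4 to 8 of 10 fits, and against NdLN those of Sema4b, Sema6b and Efna3 in 6 to 8. Calls were gained against TdLN for Sema4b (without TdLN 4 or Tumor 1), Sema6b (without TdLN 3 or Tumor 2) and Epha1 (without TdLN 1), and against NdLN for Efnb3 (without Tumor 2), beside those of Plxnb1, Plxnd1 and Sema3g given below. These counts stand beside the higher sums of pigment, fibroblast and macrophage transcripts and the lower sum of the blood endothelium list given above.

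Secreted semaphorins moved in opposite directions. Of the 7 class 3 members, Sema3a and Sema3d fell, Sema3b and Sema3c rose, Sema3f and Sema3g did not pass, and Sema3e was too low to test. Summed CPM of the class, most of it Sema3d and Sema3a, was 1288 to 1565 in NdLN, 1128 to 1685 in TdLN and 229.8 to 419 in Tumor. Log2 changes from here on are Tumor over TdLN unless another pair is named.

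Sema3d (chr5:12383385-12588948, plus strand) stood at 1045, 1029, 990.4, 1174 and 1196 CPM in NdLN, 878, 699, 994, 836 and 1029.6 in TdLN and 68.8, 93.3, 92.9, 115 and 78.8 in Tumor. All node libraries lay several-fold above all Tumor libraries, and the node groups overlapped. The gene fell 9.89-fold, a log2 change of -3.31 ± 0.15 (adjusted p = 8.65e-11). Sema3a, with the values given above, fell 7.22-fold, -2.85 ± 0.17 (adjusted p = 1.95e-09), with no overlap. Both genes lie on chromosome 5, where Sema3e and Sema3c are also found.

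Sema3b, a secreted semaphorin known as a candidate tumour suppressor, had the opposite pattern. It stood at 3.38, 4.14, 7.04, 7.07 and 6.21 CPM in NdLN, 3.002, 3.96, 7.54, 5.07 and 4.999 in TdLN and 48.98, 49.02, 40.4, 54.2 and 62.2 in Tumor. The Tumor libraries were all above the node libraries, and the mean was 10.4-fold that of TdLN, a log2 change of 3.37 ± 0.27 (adjusted p = 4.56e-08). Sema3c, needed for the outflow tract of the heart, was low throughout, at 1.21, 0.348, 1.24, 1.27 and 2.14 CPM in NdLN, 0.404, 1.74, 1.76, 4.54 and 1.74 in TdLN and 5.53, 12.7, 7.53, 3.88 and 20.3 in Tumor. It rose by 2.29 ± 0.60 (adjusted p = 0.00368), with Tumor 4 below the highest TdLN library, TdLN 4.

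Sema3f, a ligand of neuropilin-2, varied more within groups than between them. It stood at 129, 314, 43.8, 55.5 and 51.4 CPM in NdLN, 117, 128, 62.8, 245 and 287 in TdLN and 67.5, 212, 202, 62.99 and 30.8 in Tumor. All 3 groups overlapped, and the log2 change was -0.55 ± 0.63 (adjusted p = 0.467). Sema3g, an endothelial ligand of neuropilin-2, was at 0.957, 4.09, 3.36, 5.54 and 5.25 in NdLN, 1.21, 1.27, 0.173, 1.55 and 0.506 in TdLN and 0.164, 1.63, 0.871, 0.575 and 4.46 in Tumor, overlapping everywhere. Its value of 0.71 ± 0.74 (adjusted p = 0.422) turned to -0.21 without Tumor 5, and against NdLN it passed, lower, without the same library, at an adjusted p of 0.0135. Sema3e, the direct ligand of plexin-D1, gave counts of 22, 0, 0, 0 and 14 in NdLN, 0, 0, 6, 0 and 0 in TdLN and 0, 0, 0, 2 and 29 in Tumor, and most of these reads came from NdLN 1 and Tumor 5.

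**Figure D3:**
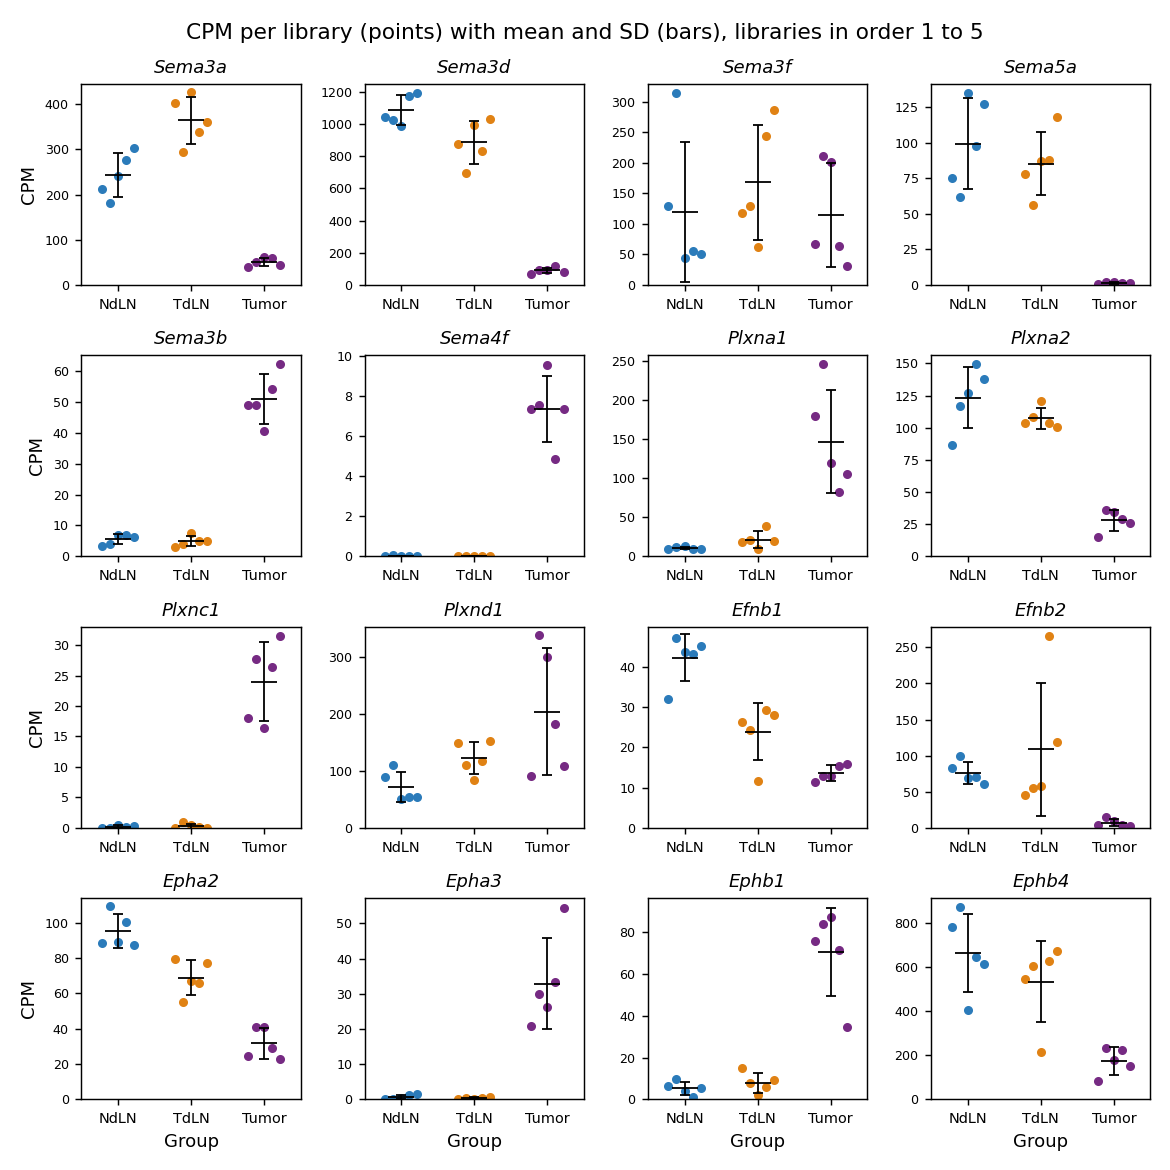
CPM (linear axes from 0) of 16 members, with a point for each library in order 1 to 5 and bars for the group mean and SD. Sema3d, Sema3a, Efnb2, Ephb4 and Sema5a are lower in Tumor than in TdLN, and Plxna1, Plxnc1 and Epha3 are higher.

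Among the 13 membrane-bound semaphorins, 5 rose and 3 fell. Sema4f, a class 4 semaphorin, had 1 count in all TdLN libraries together (in TdLN 2) and 2 in NdLN (both in NdLN 2). In Tumor it had 1235, being 180, 289, 341, 170 and 255. In CPM these Tumor libraries were at 7.37, 7.58, 9.58, 4.89 and 7.39, with every Tumor library above every node library. The ratio per total count was 1360 against TdLN (exact binomial 95% interval 244 to 53755) and 694 against NdLN (192 to 5734), and these intervals cover counting error only. The test gave an adjusted p of 3.76e-08. The others that rose were Sema4a, Sema4g, Sema5b and Sema6d. All but Sema6d stayed under 10 CPM in every library. Sema6d, a ligand of plexin-A1, reached 14.4 to 33.9 CPM in Tumor against 3.86 to 7.66 in TdLN, with a log2 change of 2.26 ± 0.27 (adjusted p = 3.86e-06).

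Sema5a, a semaphorin with thrombospondin repeats, fell further than any other member. It stood at 75.1, 61.6, 135, 97.9 and 127 CPM in NdLN, 77.8, 56.1, 87.03, 88.1 and 118 in TdLN and 0.451, 2.36, 2.08, 1.67 and 1.33 in Tumor. The lowest node library was above the highest Tumor library by more than an order of magnitude, and the gene fell 53.3-fold, -5.74 ± 0.39 (adjusted p = 7.39e-09). Sema6a, a transmembrane ligand of plexin-A2 and plexin-A4, stood at 148, 205, 171, 156 and 170.5 in NdLN, 194, 207, 207, 161 and 176 in TdLN and 37.8, 86.7, 81.4, 84.3 and 69.7 in Tumor. It fell 2.63-fold, -1.39 ± 0.18 (adjusted p = 9.75e-06), and the node groups overlapped.

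Sema4d, the plexin-B1 ligand also called CD100, stood at 40.3, 49.9, 33.2, 39.2 and 23.96 CPM in NdLN, 17.4, 20.6, 20.03, 21.1 and 24.6 in TdLN and 3.28, 15.7, 10.4, 11.1 and 13.4 in Tumor. It was lower in Tumor without overlap, -0.94 ± 0.30 (adjusted p = 0.0138). Between the nodes it did not pass, -0.85 ± 0.30 (adjusted p = 0.154), with NdLN 5 among the TdLN libraries. Sema7a, the lipid-anchored ligand of plexin-C1, stood at 21.1, 40.4, 36.7, 27.6 and 33.7 in NdLN, 33.05, 28.5, 14.96, 32.03 and 34.2 in TdLN and 11.4, 18.4, 35.8, 31.4 and 25.4 in Tumor. Its groups overlapped, and the difference was -0.22 ± 0.29 (adjusted p = 0.53). Sema4b, Sema4c, Sema6b and Sema6c also did not pass against TdLN, with log2 values from -1.03 (Sema6b) to 0.69 (Sema4b).

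Plexins, the receptors, showed 2 members rising and 5 falling. Plxna1, the plexin of the Sema3a complex, stood at 9.31, 12.4, 13.1, 9.83 and 9.42 CPM in NdLN, 18.1, 21.5, 9.61, 38.6 and 20.2 in TdLN and 180.1, 246, 119, 82.6 and 106 in Tumor. All Tumor libraries were higher, 6.79-fold over TdLN, 2.76 ± 0.35 (adjusted p = 6.19e-06). TdLN 3 alone of the TdLN libraries lay within the NdLN range, and the node difference was 1.00 ± 0.33 (adjusted p = 0.125). Plxnc1, the receptor of Sema7a, stood at 0, 0.02897, 0.509, 0.228 and 0.3104 CPM in NdLN, 0, 0.975, 0.403, 0.113 and 0 in TdLN and 18.1, 27.7, 16.4, 26.4 and 31.4 in Tumor. No node library reached 1 CPM and no Tumor library fell below 16.4, with a log2 change of 6.31 ± 0.93 (adjusted p = 3e-05).

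The other A plexins fell. Plxna2, a receptor of Sema6a, stood at 86.6, 117, 127, 149.7 and 138 CPM in NdLN, 104, 108, 121, 104 and 100.4 in TdLN and 15.4, 36.2, 34.4, 29.1 and 25.6 in Tumor, -1.93 ± 0.20 (adjusted p = 8.37e-07). Plxna4, which also serves class 3 and class 6 semaphorins, stood at 61.9, 159, 49.9, 55.5 and 44.2 in NdLN, 34.7, 59.4, 43.7, 122 and 134 in TdLN and 12.8, 18.4, 28.01, 7.902 and 5.01 in Tumor, -2.45 ± 0.53 (adjusted p = 0.000861). Neither gene overlapped between Tumor and node libraries. Plxna3 fell too, -2.61 ± 0.73 (adjusted p = 0.00607), at means of 4.81 ± 2.92 CPM in TdLN and 0.776 ± 0.637 in Tumor (SD, n = 5).

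Among the B plexins, Plxnb2 and Plxnb3 fell and Plxnb1 did not pass. Plxnb2, a receptor of class 4 semaphorins, stood at 243, 228, 247, 270 and 283 CPM in NdLN, 194, 220.4, 291, 220.2 and 217 in TdLN and 38.8, 164, 120.1, 115 and 154 in Tumor, -0.95 ± 0.27 (adjusted p = 0.00606). Tumor 1 was the lowest Tumor library here, and no Tumor library reached the node range. Plxnb3 changed by -2.08 ± 0.41 (adjusted p = 0.000387), from 3.28 ± 1.18 to 0.766 ± 0.437 CPM. Plxnb1, the receptor of Sema4d, stood at 10.4, 8.87, 20.7, 16.8 and 19.5 in NdLN, 6.72, 6.18, 19.1, 10.1 and 14.4 in TdLN and 7.66, 18.4, 14.6, 27.2 and 25.9 in Tumor, overlapping, with 0.73 ± 0.38 (adjusted p = 0.106). It passed as higher in Tumor when TdLN 3 or Tumor 1 was left out.

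Plxnd1, the endothelial receptor of Sema3e, stood at 88.99, 110.1, 50.5, 54.02 and 54.04 CPM in NdLN, 149, 111, 83.9, 117 and 152 in TdLN and 91.9, 338, 300.2, 182 and 108 in Tumor. Tumor libraries 2, 3 and 4 lay above all node libraries and Tumor 1 and 5 among them. Against TdLN the change was 0.74 ± 0.34 (adjusted p = 0.0755), which passed without Tumor 1 (0.0242) or Tumor 5 (0.0336), and against NdLN it was 1.51 ± 0.35 (adjusted p = 0.00139). Its ligand Sema3e was nearly unread in the same libraries.

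Of the 8 ephrins, 2 rose and 3 fell. Efna1, a ligand of EphA2, stood at 229.5, 195, 183, 179.8 and 181 CPM in NdLN, 179.7, 193, 171, 192 and 176 in TdLN and 179.9, 134, 155, 153 and 114 in Tumor. Its spread was small, and it was lower in Tumor, -0.31 ± 0.11 (adjusted p = 0.0254), although Tumor 1 lay within the node range. Efna3 and Efna5 rose, the second from 1.51 ± 0.583 to 10.2 ± 2.57 CPM (SD, n = 5), 2.75 ± 0.34 (adjusted p = 5.68e-06). Efna2 and Efna4 did not pass, at -0.13 and 0.24.

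Efnb2, the ligand of EphB4, stood at 83.1, 100.1, 68.7, 69.9 and 61.1 CPM in NdLN, 45.6, 54.8, 58.2, 265 and 119 in TdLN and 4.34, 15.1, 9.33, 3.85 and 2.898 in Tumor. All Tumor libraries lay under all node libraries, and TdLN 4 stood highest of all. The gene fell 15.2-fold, -3.93 ± 0.56 (adjusted p = 2.28e-05). Between the nodes the change was 0.50 ± 0.50 (adjusted p = 0.656), and -0.14 without TdLN 4. Efnb1 fell as given above, and Efnb3, at 0 to 1.14 CPM, did not pass.

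Of the Eph receptors, 4 rose and 4 fell. Ephb4 (chr5:137350109-137378669, plus strand), known for its part in lymphatic valves and in venous endothelium, stood at 779.9, 871, 406, 643 and 613 CPM in NdLN, 545, 604, 214, 626 and 669.5 in TdLN and 82.4, 232, 179, 226 and 149.8 in Tumor. It fell 3.06-fold, -1.61 ± 0.32 (adjusted p = 0.000436), and only TdLN 3 of the node libraries reached down into the Tumor range. Epha2, the receptor of ephrin-A1, stood at 88.7, 109.6, 89.4, 101 and 87.3 in NdLN, 79.6, 55.4, 66.8, 65.9 and 77.3 in TdLN and 24.7, 41.2, 41.2, 29.2 and 22.9 in Tumor. It fell in Tumor, -1.11 ± 0.17 (adjusted p = 3.75e-05). Between the nodes no library overlapped either, with TdLN the lower, but the change of -0.46 ± 0.17 (adjusted p = 0.157) did not pass.

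Epha4, which binds both ephrin classes, had a like order of groups at lower levels. It stood at 25.1, 38.7, 20.02, 18.8 and 21.5 CPM in NdLN, 11.9, 12.7, 7.86, 10.5 and 16.8 in TdLN and 0.778, 0.289, 0.927, 1.47 and 1.45 in Tumor, with no overlap between any groups. The fall in Tumor was 12.1-fold, -3.60 ± 0.38 (adjusted p = 9.39e-07), and the node difference was -1.06 ± 0.33 (adjusted p = 0.106). Ephb6, an Eph receptor without kinase activity, stood at 5.36, 4.98, 6.67, 6.19 and 7.84 in NdLN, 3.78, 2.54, 4.32, 2.62 and 5.44 in TdLN and 0.655, 0.577, 0.4495, 0.489 and 0 in Tumor, and fell, -3.11 ± 0.55 (adjusted p = 0.000177).

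Epha3, a receptor of ephrin-A5, rose the most among Eph receptors. It stood at 0.0319, 0.203, 0.368, 1.205 and 1.58 CPM in NdLN, 0, 0.355, 0.0576, 0.394 and 0.728 in TdLN and 20.8, 29.9, 26.1, 33.3 and 54.4 in Tumor. All Tumor libraries lay far above all node libraries, 6.74 ± 0.88 (adjusted p = 9.48e-06). Its ligand gene Efna5 was among the ephrins that rose. Ephb1, a receptor of B ephrins, stood at 6.28, 9.65, 3.93, 1.17 and 5.56 in NdLN, 15.2, 8.096, 2.01, 5.94 and 9.11 in TdLN and 75.8, 83.8, 87.5, 71.5 and 34.7 in Tumor, and rose 8.76-fold, 3.13 ± 0.53 (adjusted p = 0.000106). Tumor 5 was the lowest Tumor library and still above the nodes. Ephb2 and Ephb3 also rose, to 1.31 to 8.34 and 0.632 to 6.72 CPM, both overlapping with TdLN. Epha1 and Epha7 did not pass. Epha5, Epha6, Epha8 and Epha10 were too low to test. Epha5 was read in NdLN 3 alone, Epha6 in TdLN 4 alone, Epha8 in NdLN 1 alone and Epha10 in no library.

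Both tumour comparisons gave the same call for 30 members, and they share the Tumor libraries. Among these, Ephb3 stood at 2.33 against TdLN and 3.53 against NdLN, Epha3 at 6.74 and 5.59, and Epha4 at -3.60 and -4.66. Plxnd1, Sema4b, Sema6b and Epha1 passed against NdLN and not against TdLN, and Sema4g and Sema5b the reverse. Whether these effects differ is the node comparison itself, in which none of these 6 passed.

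Sema3f, Plxna4 and Efnb2 varied together among the node libraries, across both node groups. They were singled out for this after their values were seen, so their agreement follows from the choice. How many other members followed or broke the pattern was not counted, and both kinds occurred. Plxnd1 was at 110.1, 117 and 152 CPM in NdLN 2, TdLN 4 and TdLN 5. In NdLN 3, 4 and 5 it was at 50.5 to 54.04, with TdLN 3 at 83.9 and TdLN 1 at 149. Plxnb1 went the other way, at 8.87, 10.1 and 14.4 CPM in NdLN 2, TdLN 4 and TdLN 5. It was at 16.8 to 20.7 in NdLN 3, 4 and 5 and 19.1 in TdLN 3. Relative to its mean over the 10 node libraries, Sema3f was at 2.19 in NdLN 2, 1.71 in TdLN 4 and 2.00 in TdLN 5, and at 0.305 to 0.437 in NdLN 3, 4 and 5 and TdLN 3. Plxna4 was at 2.08, 1.60 and 1.75 in the first 3 libraries and at 0.572 to 0.727 in the other 4. Efnb2 was at 1.08, 2.87 and 1.29 against 0.628 to 0.755. The same 3 libraries were thus above the mean for all 3 genes and the other 7 below it, TdLN 1 being the lowest for Plxna4 (0.455) and Efnb2 (0.492). Rasa1, a Ras GTPase-activating protein downstream of EphB4, was at 1.99, 2.13 and 2.23 against 0.277 to 0.423. Plvap, a protein of endothelial diaphragms that leads the blood endothelium list together with Glycam1, was at 1.72, 1.75 and 1.70 against 0.108 to 0.5004. It was also above its mean in NdLN 1 (1.43) and TdLN 2 (1.31), where Sema3f, Plxna4 and Efnb2 were below theirs. Flt1, a blood endothelial receptor, went otherwise, at 1.87 to 2.24 in NdLN 3, 4 and 5. Of the 10 blood endothelial genes, 3 were lower in TdLN than in NdLN and none higher. This was 30.0% of the list, beside 3.49% of all genes called in either direction. The list's sum was 5842, 6272, 3559, 3147 and 3632 CPM in NdLN libraries 1 to 5. In TdLN it was 4427, 5999, 3087, 7473 and 7383, so the groups overlapped. It was highest in NdLN 2, TdLN 4 and TdLN 5 and lowest in NdLN 3, 4 and 5 and TdLN 3. Plvap and Flt1 are the only genes of the list set out by library here. No gene of the list was at 0. Which cells carried the transcripts of this list was not tested, nor was their part in this spread.

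**Figure D4:**
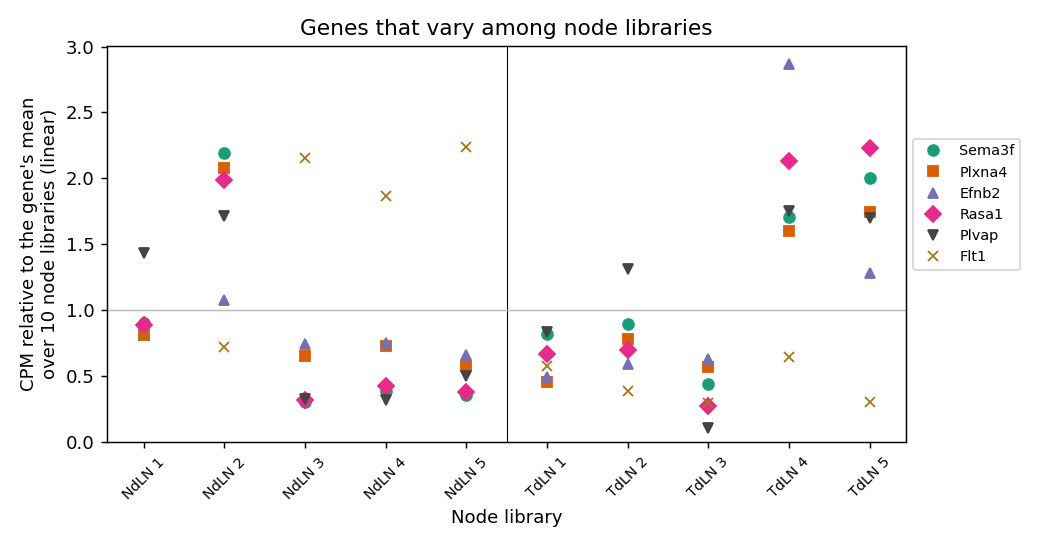
CPM of Sema3f, Plxna4, Efnb2, Rasa1, Plvap and Flt1 in each node library, as a ratio to the gene's mean over the 10 node libraries (line at 1). NdLN 2, TdLN 4 and TdLN 5 are above the line for all but Flt1, NdLN 3, 4 and 5 are below it for all but Flt1, and TdLN 3 is below it for all 6 genes.

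Partners of the families were counted from lists of co-receptors and effectors. Of 13 semaphorin co-receptors and alternative receptors, 6 were higher and 3 lower in Tumor than in TdLN. Neuropilin-1 (Nrp1), the co-receptor of Sema3a, was the only one to change between the nodes, at 18.5, 29.03, 56.4, 55.8 and 72.6 CPM in NdLN and 8.28, 12.1, 15.4, 28.96 and 16.3 in TdLN, a log2 change of -1.52 ± 0.39 (adjusted p = 0.043). Its groups overlapped, with NdLN 1 low and TdLN 4 high. Nrp1 was highest in NdLN 3, 4 and 5, as was Flt1 above, and a link between these genes was not tested. The call was lost in 8 of 10 fits that left out 1 library (all but NdLN 1 and TdLN 4), with adjusted p from 0.0536 to 0.115. Without TdLN 4, Nrp1 passed as higher in Tumor than in TdLN (0.0332). Neuropilin-2 (Nrp2) ranged over 165 to 254 CPM in NdLN, 187 to 468 in TdLN and 229 to 481 in Tumor and did not pass against TdLN, 0.33 ± 0.24 (adjusted p = 0.247). Kdr, the VEGF receptor that can associate with plexins, was lower in Tumor, -2.59 ± 0.18 (adjusted p = 1.29e-08), and Ncam1, a neural adhesion molecule, was higher, 2.08 ± 0.26 (adjusted p = 5.45e-06).

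Of 25 plexin effectors tested, 1 was higher and 1 lower in TdLN than in NdLN, and 6 were higher and 10 lower in Tumor than in TdLN. Rnd1, a GTPase that binds plexins, fell stepwise by group, from 712, 807, 834, 676 and 756 CPM in NdLN to 318, 263, 309, 352 and 280.1 in TdLN and 26.1, 21.6, 48.1, 41.4 and 40.2 in Tumor. No groups overlapped, and the log2 changes were -1.31 ± 0.18 (adjusted p = 0.00185) between the nodes and -3.10 ± 0.19 (adjusted p = 3.21e-09) from TdLN to Tumor. Crmp1, a mediator of Sema3a signals in neurons, went the other way, 1.48 ± 0.35 (adjusted p = 0.0299) and then 4.11 ± 0.37 (adjusted p = 1.79e-07). Its node call was lost in 4 of 10 fits (without NdLN 2, 4 or 5, or TdLN 1), with adjusted p from 0.0543 to 0.079. Fes, a kinase that binds plexin-A1, was lower in Tumor, -1.01 ± 0.09 (adjusted p = 1.47e-07).

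Of 26 ephrin and Eph effectors tested, none passed between the nodes, and 5 were higher and 7 lower in Tumor than in TdLN. Nck1, an adaptor of Eph receptors, was at 119.7 to 128 CPM in TdLN and 30.4 to 41.1 in Tumor, -1.87 ± 0.09 (adjusted p = 2.1e-10). Rgs3, which binds B ephrins, was at 186 to 240.1 and 18.6 to 39.7, -2.62 ± 0.18 (adjusted p = 6.61e-09). Rasa1 did not pass, -0.68 ± 0.63 (adjusted p = 0.364). The shares called in the 3 lists between Tumor and TdLN were 69.2%, 64.0% and 46.2%, beside 62.0% of all genes. Their median log2 changes were 0.68, -0.18 and -0.06, beside 0.04. Between the nodes the shares called were 7.69%, 8.0% and 0.0%, beside 3.49% of all genes.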

How the data were processed

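Lymphatic endothelial cells of 3 sources were profiled by RNA-seq, 5 libraries each, with 23830337 to 37437282 counts per library. RNA was amplified with SMARTer chemistry from 1 ng and read as single 50-base reads, per the labels' protocols. The deposited values are raw counts per Ensembl gene, made by the authors with STAR 2.4 and featureCounts 1.4.6 on GRCm38, per the submitters' processing notes, and the strand setting is not given in the sources used here. Of 21839 identifiers 21628 matched GENCODE M21, and 20838 are protein-coding.

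edgeR 4.0.16 (R 4.3.3) fitted all 15 libraries once (TMM factors, filterByExpr, robust quasi-likelihood), testing 13887 genes, 46 of the 51 members. CPM used TMM-scaled totals, and RPKM the merged exon length. The script was tested on simulated data. Deviations of same-numbered libraries from their group means correlated at -0.21 to 0.248. The labels do not name the animals, so these values cannot show whether such libraries came from the same mouse. No 2 libraries of a group agreed within sampling noise.

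Alternatives were RLE and upper-quartile factors, no filter, a filter of 10 CPM, DESeq2 1.42.0, limma 3.58.1 voom, only the compared groups, a replicate block, glmTreat against a log2 change of 1, and leaving out each library. The rule for members named with every value took all called between the nodes, the 5 highest and 5 lowest changes in each tumour comparison at a mean of at least 5 CPM, and 20 with known endothelial roles. Further members are named by call. Among the other genes, Rasa1 and the neuropilins, and up to 2 called genes per partner list, were named by rule, and Plvap and Flt1 after their values were seen. Sema3f, Plxna4 and Efnb2 were likewise picked for the account of the node libraries after their values were seen. The members and lists were chosen with earlier results of these data known. Mical3 and Slc45a2 were not found in the table by symbol. Promoters came from RefSeq (GRCm38.p6) for 45 members, all but Sema3b, Sema3f, Sema6a, Plxna1, Plxna4 and Efnb3. Figures used matplotlib 3.10.9.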

Additional observations from a re-analysis of the deposited data

Results flagged for a closer look

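In 84 groups of 5 libraries (each of 28 members in 3 groups), 9 held a library whose gap to its nearest neighbour exceeded 0.71 of the group's range, the limit of Dixon's test, which chance passes in about 1 in 20 groups. TdLN 3 was set apart for Plxnb2 (291 CPM, above 220.4), Ephb4 (214, below 545), Efnb1 (11.7, below 24.2) and Sema3e (0.173, the others at 0). NdLN 2 was set apart for Plxna4 (159, above 61.9), and NdLN 1 for Efnb1 (32.1, below 43.1). The remaining flags rest on few reads: Sema3e in Tumor 5 (0.840, above 0.0575) and TdLN 3 (0.173), and Sema4f in NdLN 2 (0.0579) and TdLN 2 (0.0295). In all but the first, the other libraries of the group had none. There the gap equals the range, so any value passes the limit and the rate of 1 in 20 does not hold.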

How the results depend on the processing

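Between TdLN and NdLN, the count of members called (0 higher, 1 lower) became 2 and 3 with DESeq2, 1 and 3 with voom, 1 and 3 with only the compared groups, and 0 lower with glmTreat, and was 0 to 1 in each direction when 1 library was left out. With only the compared groups the members called were Sema3a (higher) and Epha4, Epha2 and Sema4d (lower), so Efnb1 was not among them. Over all genes that comparison gave 466 higher and 512 lower with DESeq2 and 328 and 490 with voom. With only the compared groups it gave 270 and 428 of 13002 genes, and with glmTreat 0 and 0. edgeR's test without that bound gave 256 and 228, and 17.6% of genes at an unadjusted p under 0.05. Leaving out 1 library gave 111 to 349 higher and 111 to 215 lower. In Tumor against TdLN, members called higher were 6 under the filter of 10 CPM, which tests fewer members, and 10 to 16 without 1 library, with 16 to 18 lower. Over all genes that filter gave 3255 higher and 3181 lower of 9708 tested. glmTreat gave 1741 higher and 1784 lower, and leaving out 1 library 4140 to 4435 and 3992 to 4263. In Tumor against NdLN, members called higher were 7 under that filter, 9 with glmTreat and 13 to 14 without 1 library, with 18 to 20 lower. All genes gave 3487 and 3421 of 9708 under that filter, 2090 and 2099 with glmTreat, and 4530 to 4727 and 4330 to 4594 without 1 library.

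Among the named genes, signs turned only where no call was made. TdLN against NdLN gave Sema7a 0.00 without TdLN 3 (-0.28 at the other end, without NdLN 1), Plxna4 -0.02, -0.05, -0.13 and -0.17 without NdLN 3, NdLN 5, TdLN 4 and TdLN 5 (0.57 without NdLN 2), Efnb2 -0.14 without TdLN 4 (0.70 without TdLN 1), Sema4f 0.03 with voom and 1.37 without NdLN 2 (-2.07 without TdLN 2), and Plxnc1 -0.90 with voom and -0.72 without TdLN 2 (1.04 without NdLN 3). Tumor against TdLN gave Sema3g -0.21 without Tumor 5 (0.99 without Tumor 1). Tumor against NdLN gave Sema3f 0.23 with voom, 0.10 with the replicate block, and 0.71, 0.09, 0.11 and 0.19 without NdLN 2, Tumor 1, Tumor 4 and Tumor 5 (-0.40 without Tumor 2). It gave Rasa1 0.14 with voom, 0.14 with the replicate block, and 0.57, 0.04 and 0.14 without NdLN 2, Tumor 4 and Tumor 5 (-0.34 without Tumor 3). The cause of these shifts was not tested. With the replicate number as a block, members called were 0 higher and 1 lower between the nodes, 13 and 17 in Tumor against TdLN, and 15 and 18 in Tumor against NdLN. Over all 13887 genes the block gave 208 and 192, 4306 and 4075, and 4573 and 4422 in the same order. With the block Nrp1 missed the threshold between the nodes (adjusted p = 0.0518) and Plxnb1 passed in Tumor against TdLN (0.0287). Only TdLN 1, Tumor 1 and Tumor 2, each set against NdLN, correlated best with their own number. No Tumor library did so against TdLN. Members read at under 1 CPM limit what these libraries can show, and their fold changes have wide errors.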
